A study of Homo sapiens with 145 samples.

Results

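The Polo-like kinases PLK1, PLK2, PLK3 and PLK4 were followed in HT-1080 cells, a human fibrosarcoma line, after 24 h with 1 of 3 chemicals. The 4 genes were found by the gene symbol of the platform annotation, which assigned them 8 probe sets, and 6 of these passed a filter on low values (log2 of at least 4 in at least 5 arrays). Each gene was read by its brightest probe set, judged by the mean of all arrays, so that 4 of the 12070 genes tested were members. All values are log2 expression on Affymetrix 3' expression arrays, and a change is a dosed mean minus its vehicle mean.

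The dosed groups were etoposide (ETP) at 0.003, 0.01, 0.03, 0.1, 0.3, 1 and 3 µM, methyl methanesulfonate (MMS) at 1, 3, 10, 30, 100, 300 and 500 µM, and quercetin (QUE) at 1, 3, 10, 30, 60, 80 and 100 µM, and each chemical had its own DMSO vehicle group. Etoposide traps topoisomerase II on broken DNA, MMS methylates DNA bases, and quercetin is a plant flavonoid that acts on many enzymes. All groups, vehicles included, were plated in complete medium with heat-inactivated serum, and all received DMSO as the solvent. The labels number the arrays of a group but do not say that the numbers are separate cultures, so the p-values measure the spread between these arrays, which may be technical.

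Each ETP and QUE group was described with 5 numbered replicates and each MMS group with 6, except MMS 500 µM with 5. The ETP and QUE arrays numbered 2, 16 of the 145 arrays, were left out because they responded like the other chemical. Across the 12070 genes, the change of the array labelled ETP 3 µM number 2 correlated with the mean QUE 100 µM change at r = 0.902 and with that of the other ETP 3 µM arrays at r = 0.304. The array labelled QUE 100 µM number 2 correlated with the ETP 3 µM change at r = 0.89 and with its own chemical at r = 0.387, while the other arrays of both groups correlated best with their own label (r of 0.546 to 0.926). Where these arrays change a call, the value with all arrays is given. All 8 mesenchymal markers were at log2 4 or above in every vehicle group (4.14 to 13.27), and none of the 6 epithelial and none of the 4 endothelial markers was. Of 5 blood cell markers measured, 1 was above that level (LCP1).

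Polo-like kinases are serine/threonine kinases that drive and check steps of the cell cycle through a kinase domain and a polo-box region that docks on targets. PLK1 acts in mitotic entry, centrosome maturation, spindle assembly and cytokinesis, and PLK4 starts the duplication of centrioles. PLK2 and PLK3 are counted among stress- and growth-factor-induced genes, and both are described as targets of p53, the transcription factor activated by DNA damage, which also induces the cell cycle inhibitor CDKN1A. Many genes of the late cell cycle carry a cell cycle genes homology region (CHR) through which the DREAM and MuvB complexes regulate them.

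The sequence around each gene's start is shown because PLK1 and PLK4 both fell at the highest dose of every chemical. Neither PLK2 nor PLK3 did so. At lower doses PLK1 and PLK4 fell alike in places, as at ETP 1 µM (-0.98 and -1.09). Elsewhere their changes were less alike, as at QUE 30 µM (-1.56 ± 0.25 and -0.37 ± 0.39, the second not called). The other PLK4 probe set that passed the filter gave -0.62 ± 0.35 there, and PLK1 was not tested against PLK4. The windows run from 250 bases before to 50 bases after the start in RefSeq (GRCh38.p14), 5' to 3' in the direction of the gene, and all 4 genes had a window. Capitals mark matches, on either strand, to a CHR, spelled TTTGAA, to the CCAAT box, named by its own letters, to the core of the cAMP response element, spelled TGACGT, and to the p53 half-site. The windows are PLK1 at chr16:23678639-23678938 (plus strand), PLK2 at chr5:58460037-58460336 (minus strand), PLK3 at chr1:44800127-44800426 (plus strand) and PLK4 at chr4:127880643-127880942 (plus strand).
PLK1: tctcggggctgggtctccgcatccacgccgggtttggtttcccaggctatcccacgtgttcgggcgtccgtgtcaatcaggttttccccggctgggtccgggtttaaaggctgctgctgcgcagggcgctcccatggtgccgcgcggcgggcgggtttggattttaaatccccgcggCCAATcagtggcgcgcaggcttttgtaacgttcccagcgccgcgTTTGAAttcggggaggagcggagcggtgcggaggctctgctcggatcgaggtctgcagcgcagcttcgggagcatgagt
PLK2: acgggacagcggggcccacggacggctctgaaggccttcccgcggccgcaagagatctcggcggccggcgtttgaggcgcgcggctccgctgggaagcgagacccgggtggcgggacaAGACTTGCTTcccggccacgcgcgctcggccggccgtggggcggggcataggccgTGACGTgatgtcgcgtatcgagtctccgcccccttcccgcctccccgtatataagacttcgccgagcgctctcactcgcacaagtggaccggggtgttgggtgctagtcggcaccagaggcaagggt
PLK3: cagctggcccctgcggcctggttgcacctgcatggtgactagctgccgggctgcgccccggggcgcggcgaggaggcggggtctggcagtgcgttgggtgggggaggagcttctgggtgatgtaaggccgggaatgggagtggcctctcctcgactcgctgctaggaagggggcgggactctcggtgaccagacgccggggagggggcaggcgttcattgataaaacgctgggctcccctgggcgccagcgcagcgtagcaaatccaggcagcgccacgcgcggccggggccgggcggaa
PLK4: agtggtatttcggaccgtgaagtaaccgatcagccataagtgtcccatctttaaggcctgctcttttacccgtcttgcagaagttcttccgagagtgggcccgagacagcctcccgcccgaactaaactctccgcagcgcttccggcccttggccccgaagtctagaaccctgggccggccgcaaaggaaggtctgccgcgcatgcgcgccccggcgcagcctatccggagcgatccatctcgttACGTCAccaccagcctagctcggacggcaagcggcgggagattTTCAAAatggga

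The PLK1 window held a CHR whose first base lay 29 bases before the start, and a CCAAT box 73 bases before it. The PLK4 window, the one at the gene start among 3 listed for that gene, held a CHR match on the other strand 39 bases after the start and a cAMP response element core on the other strand 5 bases before it. The PLK2 window held a p53 half-site 132 bases before the start and a cAMP response element core 77 bases before it, and the PLK3 window held none of the 4 motifs. Such matches are common: of 35114 windows of the same length, 15.2% held the CHR letters, 34.6% a CCAAT box, 7.98% the cAMP response element core and 6.63% the p53 half-site. The motifs do not overlap one another in these windows, and a match is a description of letters.

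At the highest doses PLK1 and PLK4 fell with all 3 chemicals, and PLK2 fell with MMS and QUE but was slightly higher with ETP. PLK3 rose with all 3 by the probe set used. Its other set that passed the filter, 215462_PM_at, changed by 0.88 with ETP, 0.16 with MMS and -0.21 with QUE. A gene was called changed where limma's Benjamini-Hochberg adjusted p over the 12070 genes was below 0.05 and the change was at least 1.5-fold (0.585 on the log2 scale). By this rule 3 of the 4 genes were called at ETP 3 µM, where 13.2% of all genes were, 4 of 4 at MMS 500 µM (34.6% of all genes) and 4 of 4 at QUE 100 µM (27.6%). The dosed and vehicle arrays did not overlap for 4 of 4 genes at ETP 3 µM (23.8% of all genes), for 3 of 4 at MMS 500 µM (38.6%) and for 3 of 4 at QUE 100 µM (27.6%).

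At lower doses the count of members called was 1 of 4 at ETP 0.03 µM (0.63% of all genes called), 3 at 0.1 µM (3.74%), 2 at 0.3 µM (4.56%) and 3 at 1 µM (8.9%). With MMS it was 1 of 4 at 100 µM (1.61%) and 2 at 300 µM (12.2%). With QUE 0 of 4 members were called at 10 µM (1.78%), 2 were at 30 µM (17%) and 2 at 60 µM (25.4%), while 80 µM had 3 (24.5%). No member was called, or had an adjusted p below 0.05 in limma, with or without the replicate block, at the remaining doses, which were the lowest of each series. There 0 of all genes were called at the ETP doses up to 0.01 µM and the MMS doses up to 30 µM, and 118 and 208 genes with ETP and 32 to 127 with MMS had an unadjusted p below 0.05, fewer than 5% of the 12070 genes. At QUE 1 µM 0.0331% of all genes were called, and at QUE 3 µM 0.0911%. In all, 30 of 84 pairs of gene and dose were called. These pairs are not independent, since the doses of a chemical share a vehicle group. No pooled share over all genes was counted, so the total is to be read only beside the shares at each dose.

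**Figure D1:**
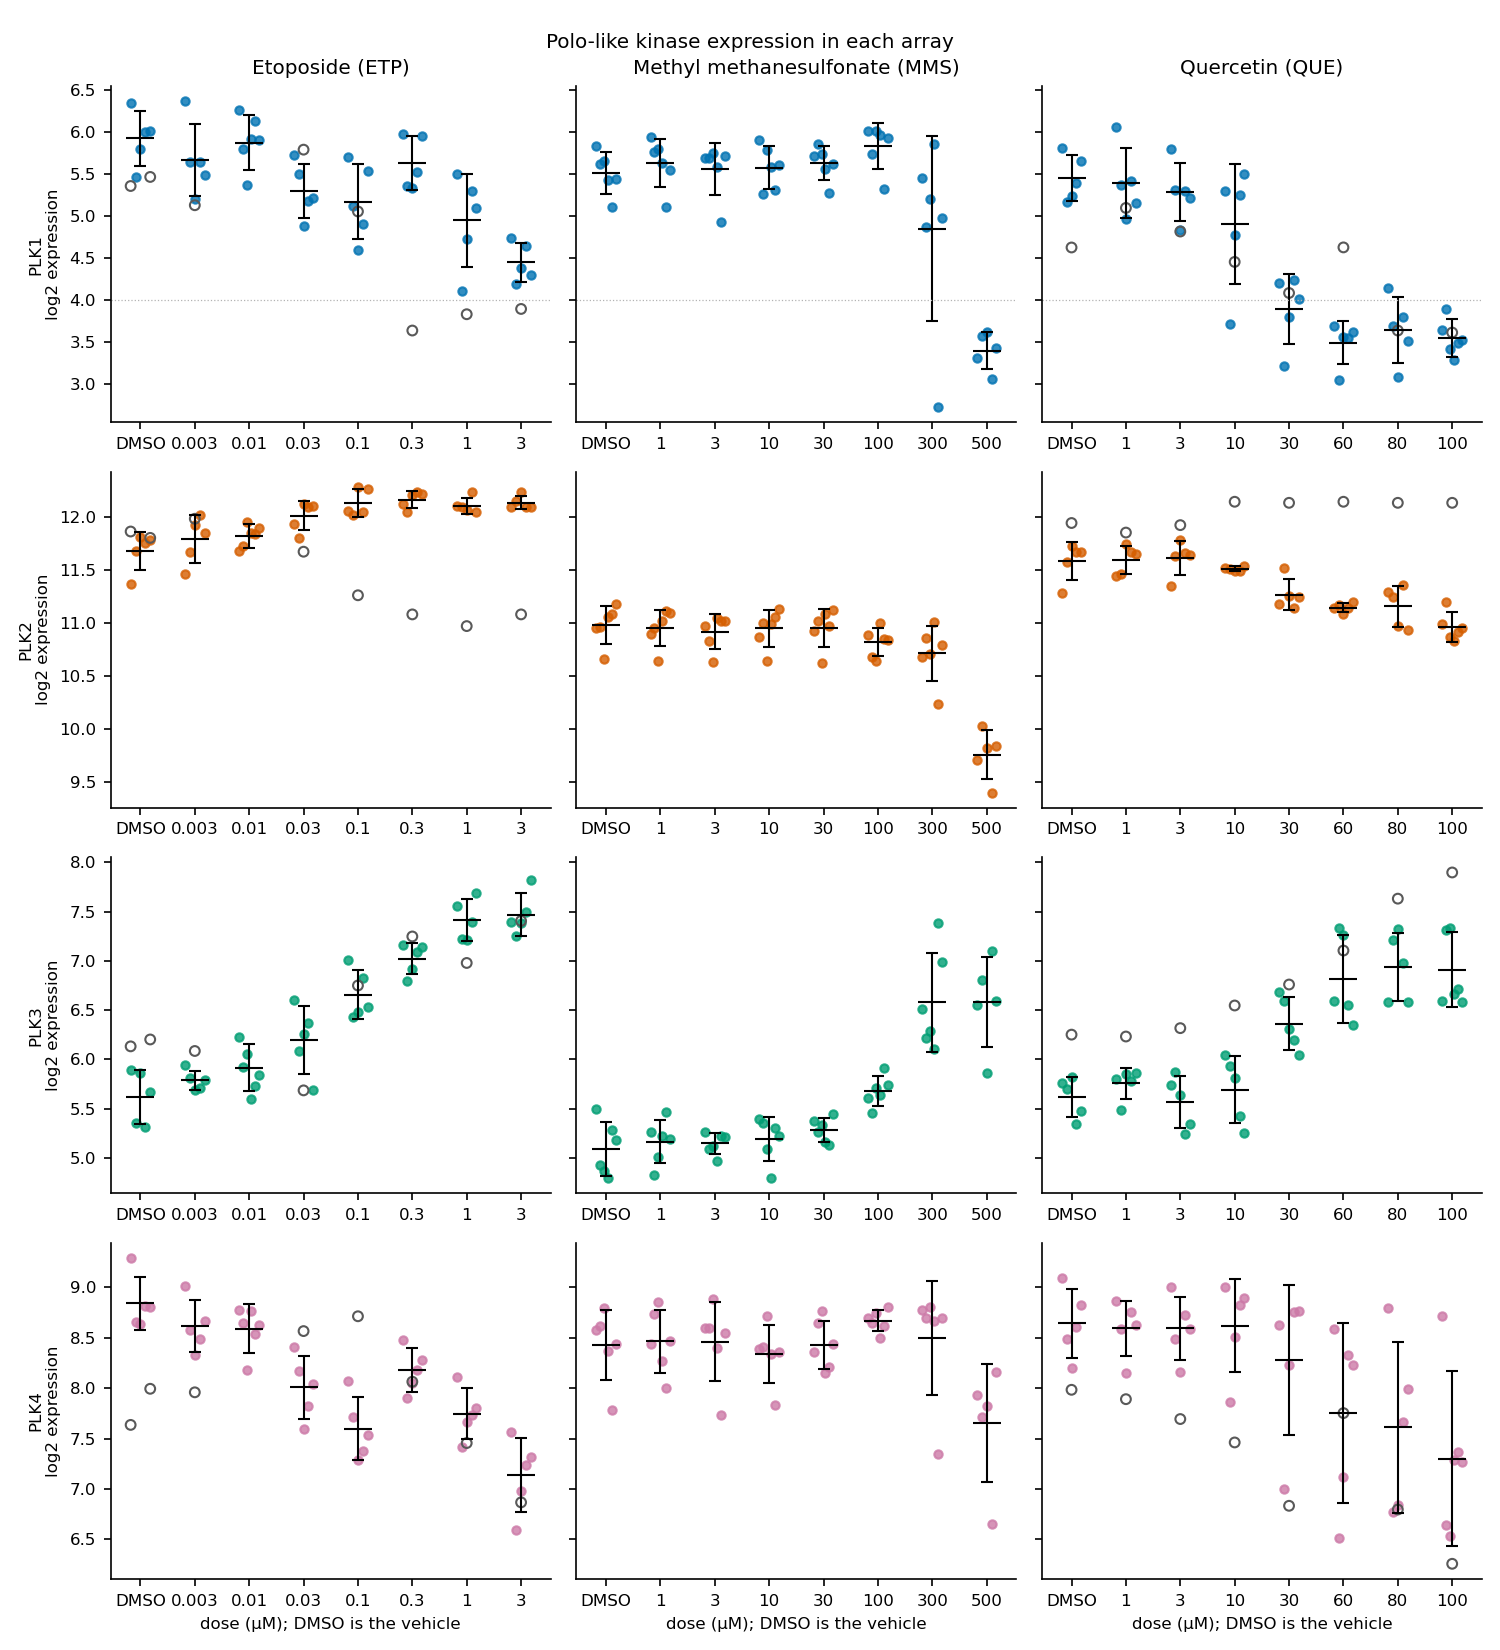
Log2 expression of each Polo-like kinase (rows) in every array against the dose in µM, with DMSO at the left of each panel, for ETP, MMS and QUE (columns). Filled points are arrays used, open points the ETP and QUE arrays numbered 2 that were left out, and black marks the mean and SD over replicates; the dotted line in the PLK1 row is log2 4. The vertical scale differs between genes, whose levels cannot be set against each other, and PLK1 lies below log2 4 in all MMS 500 µM arrays.

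PLK1, on chromosome 16 (23678889 to 23690367, GRCh38.p14), was measured by its only probe set, 202240_PM_at. In the ETP 3 µM arrays it read 4.74, 4.18, 4.38, 4.65 and 4.30, against 6.35, 5.46, 5.80, 6.00 and 6.01 in the ETP DMSO arrays. Every ETP 3 µM array lay below every vehicle array, a change of -1.47 ± 0.23 (SE, limma adjusted p = 2.74e-06). At MMS 500 µM PLK1 read 3.31, 3.56, 3.62, 3.06 and 3.42, against a lowest value of 5.10, a median of 5.53 and a highest of 5.84 in the 6 MMS DMSO arrays, a change of -2.12 ± 0.27 (adjusted p = 3.94e-09). At QUE 100 µM it read 3.64, 3.89, 3.42, 3.29 and 3.50, against 5.80, 5.17, 5.23, 5.39 and 5.65 in QUE DMSO arrays, a change of -1.90 ± 0.25 (adjusted p = 1.05e-07). The groups did not overlap in either comparison, but the dosed means, 3.40 with MMS and 3.55 with QUE (and 3.89 already at QUE 30 µM), lay under log2 4, the level taken here as above background, so the size of these falls is uncertain.

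PLK1 fell at different points of the dose series. With QUE the gene fell at 30 µM (-1.56 ± 0.25), with -1.96 and -1.81 at 60 and 80 µM; the dosed means from 30 µM on lay under log2 4, where a further fall may not show. The step of -1.01 between 10 and 30 µM was called (adjusted p = 0.00506; 5.82% of all genes called). With MMS the changes at 1 to 100 µM were between 0.04 and 0.32, none past the threshold. The steps to 300 µM (-0.98, adjusted p = 0.00703, 3.94% of genes called) and to 500 µM (-1.45, adjusted p = 1.89e-05, 18.7%) were both called. Both steps include a low MMS 300 µM array, number 5, which widens the first and narrows the second. Neither was refitted without it, so the call of the step to 300 µM may rest on that array. The change of -0.67 at MMS 300 µM (adjusted p = 0.037) rested on array number 5, which read 2.72 against 4.87 to 5.86 in the other MMS 300 µM arrays; without it the change was -0.24 (adjusted p = 0.273). The call was also lost without vehicle number 1, 2 or 3 or without MMS 300 µM number 2, at changes of -0.60 to -0.67 (adjusted p of 0.051 to 0.08), with no filter on low values (adjusted p = 0.0556), and in a fit of the dosed and vehicle groups alone (adjusted p = 0.21). With the replicate number as a block, and array number 5 kept, the change at MMS 300 µM was called (limma adjusted p = 0.00233).

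With ETP, PLK1 did not follow dose evenly. The changes were -0.63 ± 0.23 at 0.03 µM (adjusted p = 0.144), -0.75 at 0.1 µM (0.0234), -0.30 at 0.3 µM (0.398) and -0.98 at 1 µM (0.00114). Same-numbered ETP arrays deviated together, and with the replicate number as a block the change at 0.03 µM was called (paired adjusted p = 0.00116). So was the step of -0.68 between 0.3 and 1 µM (paired adjusted p = 0.00251, against 0.322 without the block). Without the block 0.116% of genes were called at this step, and the share with the block was not counted. The call at 0.1 µM was lost without vehicle number 1 (-0.65, adjusted p = 0.0916) or 6 (-0.73, 0.0506), without ETP 0.1 µM number 4 (-0.61, 0.0967) or 5 (-0.69, 0.0659), and with all arrays kept (-0.69, 0.186). With the replicate block the change at 0.1 µM was called (paired adjusted p = 4.9e-05).

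PLK4, the kinase that licenses centriole duplication, lies on chromosome 4 (127880893 to 127899224) and was read by probe set 204886_PM_at. At ETP 3 µM it read 7.56, 6.60, 6.98, 7.24 and 7.31, against 9.29, 8.66, 8.63, 8.82 and 8.80 in ETP DMSO arrays. No array overlapped, and the change was -1.70 ± 0.17 (adjusted p = 3.61e-10). At MMS 500 µM it read 7.93, 7.71, 7.82, 6.66 and 8.16, against 7.79 to 8.79 (median 8.51) in MMS DMSO arrays. These groups overlapped, at a change of -0.77 ± 0.22 (adjusted p = 0.00202), and without array number 5, the lowest, the change was -0.52 (adjusted p = 0.0275) and under 1.5-fold. At QUE 100 µM it read 8.71, 6.64, 6.54, 7.29 and 7.32, against 9.09, 8.48, 8.20, 8.61 and 8.83 in QUE DMSO arrays. There 4 of 5 arrays lay below every vehicle and number 1 lay inside the vehicle range, at a change of -1.34 ± 0.39 (adjusted p = 0.00421). The title of number 1 carries the suffix nf, as do those of number 4, the lowest, and of an array averaged into number 6. Other arrays of the series carry this suffix too, and the labels do not explain it.

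PLK4 fell over a wide range of ETP doses. It was called at 0.03 µM (-0.83 ± 0.17, adjusted p = 0.00398), 0.1 µM (-1.24, 2.27e-06), 0.3 µM (-0.66, 0.00498) and 1 µM (-1.09, 4.63e-06), without overlap at any of them (3.3%, 9.32%, 10.6% and 17.4% of all genes did not overlap). The fall was thus smaller at 0.3 µM than at 0.1 µM in each of the 5 numbered replicates, by 0.58 ± 0.17. This step was under 1.5-fold, with an adjusted p of 0.0984, and of 8.76e-05 paired by number. Without the pairing 0.265% of genes were called at this step, and the paired share was not counted. The step of -0.61 between 1 and 3 µM had an adjusted p of 0.0561 and was called with the replicate block (2.68e-05). Here too the share of genes called, 0.389%, is that without the block. The call at 0.3 µM was lost by fold without vehicle number 1, at 9.29 the highest of its group (-0.55, adjusted p = 0.0289), and with all arrays kept the changes at 0.03 and 0.3 µM were not called (-0.57, 0.604 and -0.51, 0.111).

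With MMS, PLK4 moved in 1 step. Its change was between -0.09 and 0.24 at 1 to 300 µM, and 5 of the 6 MMS 300 µM arrays lay between 8.67 and 8.81 while number 5 read 7.35; without that array the change at 300 µM was 0.30 (adjusted p = 0.224). The step between 300 and 500 µM was -0.84 ± 0.22 (adjusted p = 0.00144). With QUE the spread between arrays widened with dose, to an SD of 0.87 at 100 µM against 0.34 in vehicles. The changes at 60 and 80 µM were -0.89 (adjusted p = 0.0574) and -1.03 (adjusted p = 0.028), and the second was no longer called without vehicle number 1 or 6 or QUE 80 µM number 3 or 4 (-0.82 to -0.99, adjusted p of 0.0549 to 0.0968).

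PLK3, a kinase linked to stress and checkpoint responses, lies on chromosome 1 (44800377 to 44805990) and was read by probe set 204958_PM_at. At ETP 3 µM it read 7.39, 7.25, 7.38, 7.50 and 7.83, against 5.89, 5.35, 5.86, 5.32 and 5.67 in ETP DMSO arrays. All dosed arrays lay above all vehicles, and PLK3 rose by 1.85 ± 0.15, 3.61-fold (adjusted p = 9.52e-13). At MMS 500 µM it read 6.56, 6.80, 5.86, 7.10 and 6.59, against 4.79 to 5.49 (median 5.05) in MMS DMSO arrays, a rise of 1.49 ± 0.17 (adjusted p = 3.58e-10). At QUE 100 µM it read 6.59, 7.32, 7.33, 6.66 and 6.65, against 5.76, 5.70, 5.82, 5.35 and 5.47 in QUE DMSO arrays, a rise of 1.29 ± 0.20 (adjusted p = 1.43e-06). Neither comparison showed an overlap.

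PLK3 rose over the ETP doses, at 0.17, 0.30, 0.58, 1.04, 1.40, 1.80 and 1.85 in increasing order of dose. At 0.03 µM its adjusted p was 0.0191 and the change lay just under 1.5-fold; it passed that limit without vehicle number 1, 4 or 6 or ETP 0.03 µM number 3 or 6 (0.60 to 0.71). With MMS it stood at 0.59 ± 0.16 at 100 µM (adjusted p = 0.0284), just over 1.5-fold, and at 1.49 at both 300 and 500 µM, with a called step of 0.90 between 100 and 300 µM (adjusted p = 1.22e-04). The call at MMS 100 µM was lost without vehicle number 2, 3 or 4 or MMS 100 µM number 3, 5 or 6 (0.53 to 0.58, adjusted p of 0.056 to 0.0808). With the replicate block the change at MMS 100 µM was called (paired adjusted p = 8.42e-04). With QUE the changes at 1 to 10 µM were between -0.06 and 0.13, and PLK3 then rose by 0.74, 1.20, 1.31 and 1.29 at 30, 60, 80 and 100 µM, where the step between 10 and 30 µM was called (0.67 ± 0.20, adjusted p = 0.0179; 0.14 with all arrays).

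The probe sets of PLK3 disagreed. A further set that passed the filter, 215462_PM_at, rose by 0.88 ± 0.12 at ETP 3 µM, but its change was 0.16 ± 0.20 at MMS 500 µM (adjusted p = 0.521; 0.40 and 0.104 at 300 µM) and -0.42, -0.28, -0.13 and -0.21 at QUE 30, 60, 80 and 100 µM. At QUE 30 µM its change had an adjusted p of 0.00498, opposite in sign to that of the set used. At lower ETP doses it had smaller changes than the set used, 0.22 at 0.03 µM (adjusted p = 0.329), 0.47 at both 0.1 and 0.3 µM (0.0037 and 0.00253, under 1.5-fold) and 0.73 at 1 µM. Both sets thus called a rise of PLK3 at ETP 1 and 3 µM, while the calls at ETP 0.1 and 0.3 µM and those with MMS and QUE came from 204958_PM_at alone. The PLK3 set 229825_PM_at did not pass the filter. For PLK4 the other set that passed it, 204887_PM_s_at, gave changes of -1.56 at ETP 3 µM, -0.76 at MMS 500 µM and -1.33 at QUE 100 µM, close to those of the set used, and the smaller fall at ETP 0.3 µM (-0.58) than at 0.1 µM (-1.06) was seen in it too. Unlike the set used, 204887_PM_s_at was not called at ETP 0.3 µM, where it was under 1.5-fold, and was called at QUE 60 µM (-1.06, adjusted p = 0.012). The PLK4 set 211088_PM_s_at did not pass the filter.

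**Figure D2:**
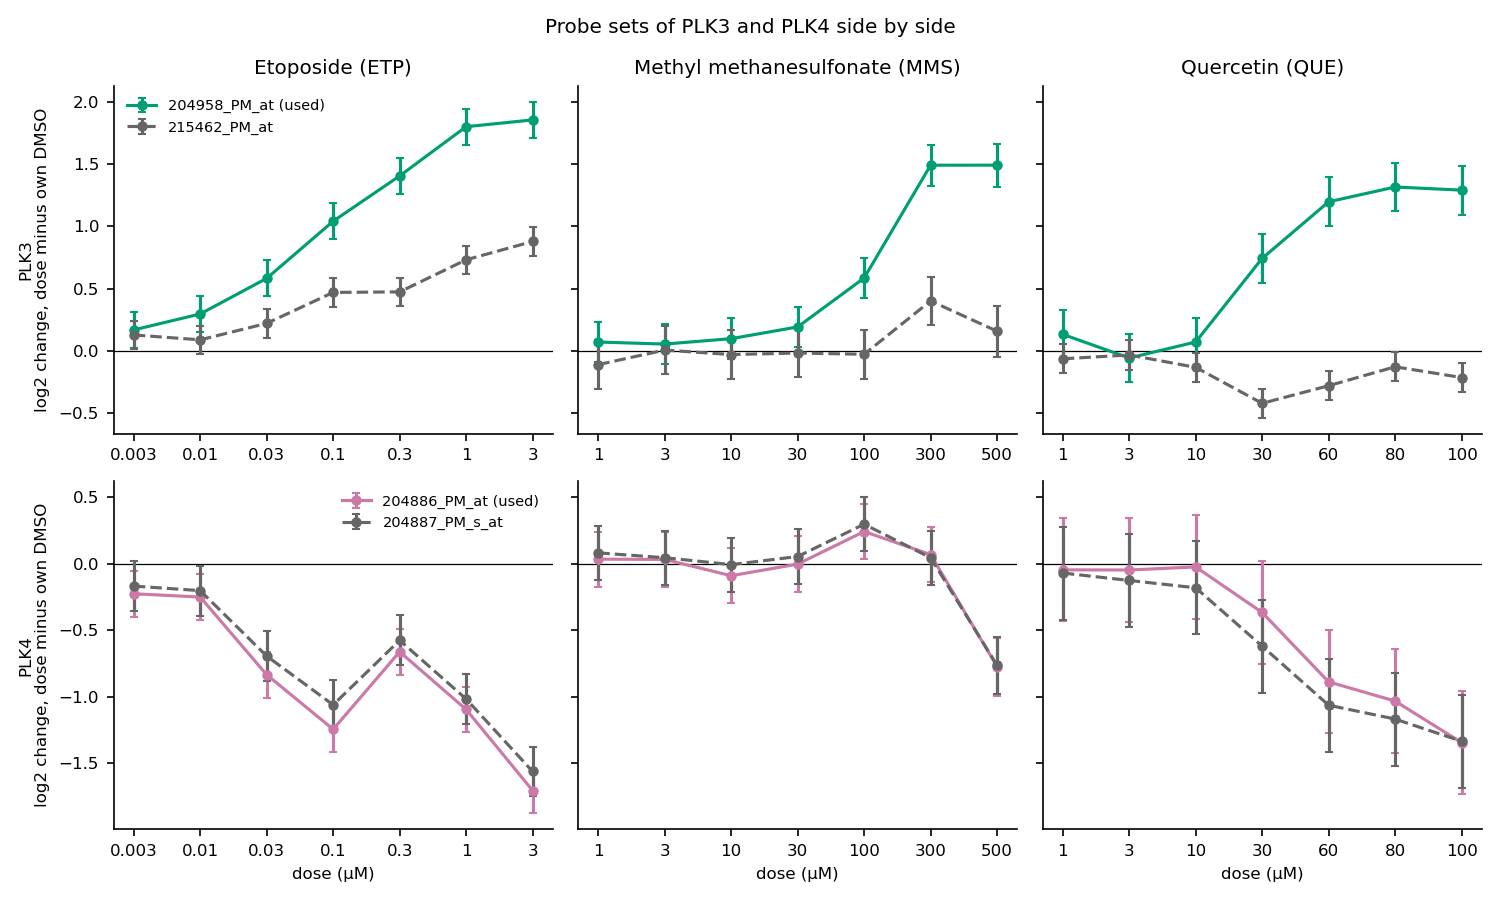
Log2 change against the own DMSO group (vertical axis, mean ± SE) by dose in µM for the PLK3 and PLK4 probe sets that passed the filter, in ETP, MMS and QUE. The solid line is the set used and the dashed grey line the other one. The PLK4 lines lie close together, less so at QUE 30 µM (-0.37 and -0.62). The PLK3 lines part with MMS and lie on opposite sides of 0 at QUE 30 to 100 µM.

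PLK2, an inducible kinase also tied to centriole duplication, lies on chromosome 5 (58453982 to 58460086) and had 1 probe set, 201939_PM_at. At ETP 3 µM it read 12.09, 12.15, 12.23, 12.09 and 12.09, against 11.37, 11.68, 11.81, 11.75 and 11.78 in ETP DMSO arrays. All dosed arrays lay above all vehicles by a small margin, and the change of 0.45 ± 0.08 passed the adjusted p (2.79e-05) but not the 1.5-fold limit. It was nearly flat over dose, at 0.33, 0.45, 0.48, 0.43 and 0.45 at 0.03, 0.1, 0.3, 1 and 3 µM, each with an adjusted p below 0.05, a level reached by 2.57%, 14%, 19.7%, 32.2% and 41.4% of all genes at these doses. With all arrays kept none of these 5 changes passed (0.25 at 3 µM, adjusted p = 0.314).

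At MMS 500 µM PLK2 read 9.71, 10.03, 9.82, 9.40 and 9.84, against 10.66 to 11.18 (median 11.01) in MMS DMSO arrays. The groups were far apart, and PLK2 fell by 1.22 ± 0.11 (SE; adjusted p = 4.35e-13). Most of this fall came at the last step, which was -0.95 ± 0.11 between 300 and 500 µM (adjusted p = 1.74e-09), while the change at 300 µM was -0.27 (adjusted p = 0.0412, a level 36.5% of all genes passed) and under 1.5-fold. Without MMS 300 µM number 5, at 10.24 the lowest of its group, that change was -0.17 (adjusted p = 0.184). At QUE 100 µM PLK2 read 10.99, 11.20, 10.87, 10.83 and 10.93, against 11.28, 11.57, 11.72, 11.67 and 11.67 in QUE DMSO arrays. The dosed arrays lay below all vehicles, at a change of -0.62 ± 0.09 (adjusted p = 4.32e-07), and the changes at 30, 60 and 80 µM, -0.32, -0.44 and -0.43, passed the adjusted p, as 36%, 47.4% and 46.4% of all genes did, but not the fold limit. With all arrays kept the change at QUE 100 µM was -0.49 (adjusted p = 0.0332) and no longer reached 1.5-fold, and those at 30, 60 and 80 µM did not pass (adjusted p of 0.385, 0.162 and 0.172).

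**Figure D3:**
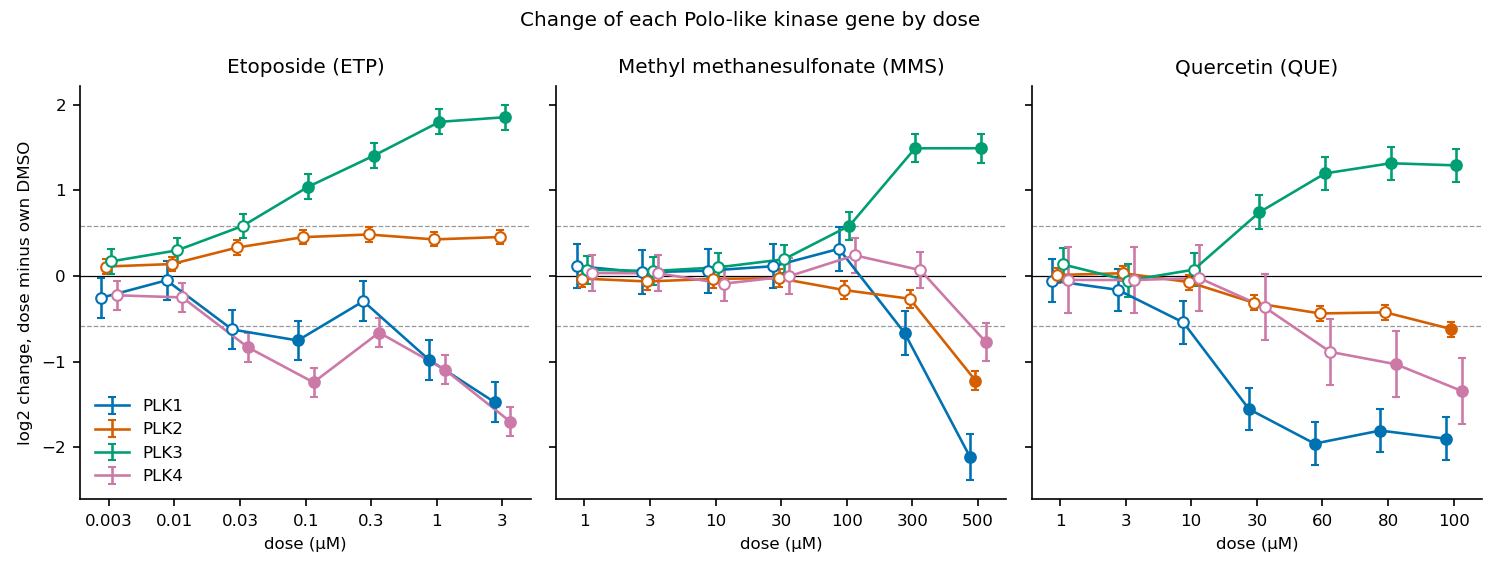
Log2 change of each Polo-like kinase against its own DMSO group (vertical axis, mean ± SE from limma) by dose in µM with ETP, MMS and QUE. Filled points were called (adjusted p below 0.05 and at least 1.5-fold, dashed lines) and open points were not; PLK3 lies above 0 and PLK1 and PLK4 below it at every highest dose, while PLK2 is at 0.45, -1.22 and -0.62.

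The chemicals were set against each other by the difference between their changes at the highest doses, which are not matched in dose or in effect. For PLK2 all 3 differences were called: ETP minus MMS was 1.68 ± 0.14 (adjusted p = 1.28e-19; 30.5% of all genes called), ETP minus QUE was 1.07 ± 0.14 (7.12e-10; 23.4%) and MMS minus QUE was -0.60 ± 0.14 (1.68e-04; 28.2%). With all arrays kept, ETP minus QUE was 0.74 (adjusted p = 0.101) and not called, whereas ETP minus MMS and MMS minus QUE stayed called. For PLK4, ETP minus MMS was -0.93 ± 0.39 (adjusted p = 0.0426), or -0.80 (0.118) with all arrays. For PLK1 the differences were between -0.22 and 0.64, and for PLK3, by the probe set used, between 0.20 and 0.56. None was past the threshold, which does not show that the chemicals act alike on these genes. The other PLK3 set that passed the filter changed by 0.88 with ETP, 0.16 with MMS and -0.21 with QUE at these doses. These changes lie further apart than those of the set used, and the differences between them were not tested.

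The genes around PLK1 fell with it. Of 22 genes that activate PLK1, are its targets or work beside it in mitosis, 17 fell and 0 rose at ETP 3 µM (median -1.11), where 6.92% of all genes fell. At MMS 500 µM 18 fell and 0 rose (median -1.22; 16.9% of all genes fell), and at QUE 100 µM 17 fell and 0 rose (median -1.40; 14.5%), while the median over all genes was between 0.002 and 0.054. With ETP the largest falls were those of the checkpoint kinases BUB1B (-1.69 ± 0.21) and BUB1 (-1.43 ± 0.20), of PRC1, which bundles midzone microtubules (-1.45 ± 0.19), and of the cytokinesis motor KIF23 (-1.43 ± 0.24). With MMS they were the mitotic kinesin KIF20A (-3.20 ± 0.35), cyclin B1, CCNB1 (-2.10 ± 0.27), the phosphatase CDC25B (-1.91 ± 0.19) and AURKA, the kinase that activates PLK1 (-1.89 ± 0.24). With QUE they were BUB1B (-3.31 ± 0.53), KIF20A (-3.27 ± 0.43), BUB1 (-3.20 ± 0.42) and AURKA (-2.86 ± 0.36). In bulk RNA, fewer cells in mitosis and less RNA per cell cannot be told apart. The smaller fall of PLK1 at ETP 0.3 µM stood beside a like count in this list: 11 of 22 genes fell at 0.1 µM (median -0.61; 2.36% of all genes fell), 1 did at 0.3 µM (median -0.23; 1.53%), and 12 did at 1 µM (median -0.62; 3.73%).

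The centriole genes around PLK4 mostly did not pass the threshold. Of 18 measured, 5 fell and 0 rose at ETP 3 µM (median -0.46), where 6.92% of all genes fell and 6.25% rose. At MMS 500 µM 1 fell and 0 rose (median 0.02; 16.9% of all genes fell and 17.7% rose), and at QUE 100 µM 2 fell and 2 rose (median -0.26; 14.5% fell and 13.1% rose), a count near the share of all genes called. STIL, the partner that activates PLK4 at the centriole, fell by 1.24 ± 0.27 (SE) with ETP and by 1.27 ± 0.48 with QUE. PCNT, a scaffold of the material around the centrioles, had a change of -0.84 ± 0.17 with ETP, and CEP85 and CEP135, both centriolar proteins, -0.78 ± 0.20 and -0.72 ± 0.13. CEP63 fell by 0.65 ± 0.06 with MMS, and with QUE CEP192, a recruiter of PLK4, fell by 0.70 ± 0.21 whereas SPICE1 and CEP120 rose by 0.89 ± 0.14 and 0.83 ± 0.16.

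Of 18 measured p53 and stress-induced genes around PLK2 and PLK3, 11 rose at ETP 3 µM (median 0.91; 6.25% of all genes rose), 13 at MMS 500 µM (median 0.88; 17.7%) and 16 at QUE 100 µM (median 1.30; 13.1%), and 0 fell at any of these. The stress transcription factor ATF3 rose by 3.07 ± 0.23, 3.48 ± 0.25 and 3.00 ± 0.25 with ETP, MMS and QUE, and the p53 target TP53INP1 by 2.68 ± 0.13, 1.38 ± 0.13 and 2.14 ± 0.15. The death receptor FAS rose by 1.77 ± 0.14 with ETP and 2.36 ± 0.17 with QUE, and the immediate early gene EGR1 by 2.11 ± 0.81 with MMS and 2.07 ± 0.52 with QUE. CDKN1A, which p53 induces, rose by 1.83 ± 0.09 with ETP, 1.41 ± 0.10 with MMS and 1.29 ± 0.14 with QUE, but the activity of p53 was not measured. PLK3 was on the side of these genes with all 3 chemicals, by its higher probe set, and PLK2 with ETP at under 1.5-fold, but on the opposite side with MMS and QUE.

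Among 15 measured regulators of G2/M transcription, 4 fell and 0 rose at ETP 3 µM (6.92% of all genes fell and 6.25% rose), 3 fell and 1 rose at MMS 500 µM (16.9% and 17.7%), and 5 fell and 1 rose at QUE 100 µM (14.5% and 13.1%). The count at MMS 500 µM was near the share of all genes called, 34.6%, so the members named there are single genes and not a result about the list. FOXM1, an activator of late cell cycle genes, fell with all 3 (-1.51 ± 0.26, -1.25 ± 0.36 and -0.91 ± 0.36 with ETP, MMS and QUE), and RBL1, the DREAM pocket protein p107, fell with ETP (-1.04 ± 0.26) and QUE (-1.12 ± 0.46). MYBL2 and LIN9, which work in MuvB complexes, fell with ETP (-0.84 ± 0.32 and -0.69 ± 0.13). NFYB, a subunit of the CCAAT-binding factor, fell with MMS (-0.78 ± 0.13) and QUE (-0.84 ± 0.14), as did TFDP1, the E2F partner, with MMS (-0.63 ± 0.13), whereas the MuvB subunit LIN37 rose with MMS (0.74 ± 0.19) and QUE (0.90 ± 0.22).

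**Figure D4:**
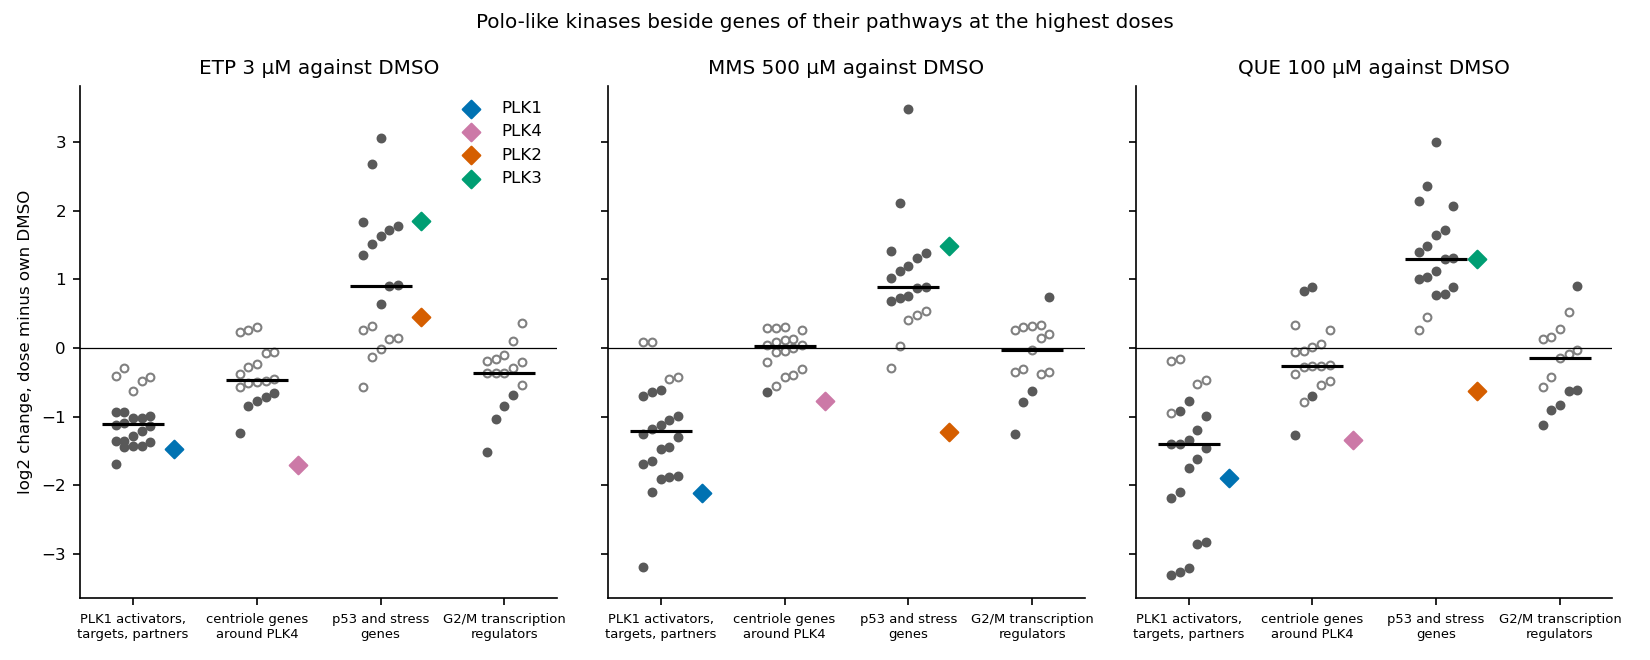
Log2 change against the own DMSO group (vertical axis) at the highest dose of each chemical for each measured gene of the 4 lists (horizontal axis). Filled dots were called and open dots were not, horizontal bars are list medians and diamonds are the Polo-like kinases; 17, 18 and 17 of the 22 genes around PLK1 fell, and PLK2 lies below 0 with MMS and QUE.

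Over the 21 mean changes, the genes whose pattern was most like that of each member among 11686 compared were found by Pearson's r, as a description, since the changes of a chemical share a vehicle. For PLK1 they were UBE2S (r = 0.986), PSRC1, PRC1, PHF19 and BIRC5, the last known as survivin. For PLK4 they were FBXO5 (r = 0.985), an inhibitor of the anaphase-promoting complex, KNTC1, TUBGCP3, ANKRD9 and CENPX. For PLK3, read here and below by 204958_PM_at alone, they were CDKN1A (r = 0.987), SAMM50, DUSP14, the p53-induced phosphatase PPM1D and GREB1. The other PLK3 set that passed the filter, which parted from it with MMS and QUE, was not compared. For PLK2 they were KRT7 (r = 0.978; 0.69, -1.56 and -0.93 at ETP 3, MMS 500 and QUE 100 µM), CD109, HSD17B4, CELSR1 and RAB30. Between the members r was 0.737 for PLK1 with PLK4, -0.757 for PLK3 with PLK4, -0.717 for PLK1 with PLK3, 0.515 for PLK1 with PLK2, and -0.09 for PLK2 with both PLK3 and PLK4.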

How the data were processed

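Expression was measured in 145 HT-1080 samples, 1 array each. Per the submitters' processing notes, the deposited log2 values were made with GCRMA and Partek; their versions and a genome build are not given in the sources used here. The medians of the chemicals' arrays do not overlap, so levels were compared within a chemical only. Of 54613 probe sets, 40914 had 1 gene symbol in the platform annotation, 864 several and 12835 none; 27102 of all sets passed log2 4 in at least 5 arrays, and among those with 1 symbol the brightest set stood for each of 12070 genes.

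Arrays that share a number within a group (2 pairs among the 129 arrays used) were averaged, giving 127 replicates, and no 2 arrays were identical. limma 3.58.1 (R 4.3.3) was fitted per chemical over its 8 groups with a mean-variance trend, and p-values were Benjamini-Hochberg adjusted over the 12070 genes of a comparison; figures were drawn with matplotlib 3.10.9. In simulated data with 200 changed genes, the fit was tested before use. Same-numbered arrays deviated together (every pair's correlation over 0.1) at all ETP doses, MMS 1 to 300 µM and QUE 1 to 30 µM. They also did so at every step between adjacent doses except that from MMS 300 to 500 µM. Blocked values are given for these doses and steps where they change a call, and for some calls that were lost without a replicate. The alternatives were all arrays, the replicate block, other normalization, filters, fold limits and probe sets, and leaving out each replicate. Named were the 4 members, CDKN1A, up to 4 called genes per list and highest dose by size of change, and the 5 genes nearest to each member. The members and lists were chosen with earlier results of these data known. The number of arrays limits the precision.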

Additional observations from a re-analysis of the deposited data

Results flagged for a closer look

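In 7 of the 96 groups of a gene and a dose or vehicle, 1 array stood apart from the rest of its group by Dixon's test, where chance alone gives about 1 in 20 groups. In the MMS series number 5 was such an array for PLK1 at 3 µM (4.932, others 5.58 to 5.745) and 300 µM (2.724, others 4.872 to 5.86) and for PLK4 at 300 µM (7.348, others 8.667 to 8.805). In the QUE series number 3 was such an array for PLK1 at 60 µM (3.04, others 3.548 to 3.69), PLK2 at 30 µM (11.52, others 11.14 to 11.25) and PLK3 at 1 µM (5.484, others 5.78 to 5.861). For PLK4 the ETP DMSO array number 1 read 9.29, others 8.635 to 8.818.

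The ETP 3 µM and QUE 100 µM arrays numbered 2, left out of the main comparisons, also lay outside the vehicle ranges of their labels. The array labelled ETP 3 µM number 2 read 3.892 for PLK1, 11.08 for PLK2, 7.406 for PLK3 and 6.868 for PLK4, against ETP vehicles, number 2 included, of 5.41 to 6.347, 11.37 to 11.83, 5.316 to 6.167 and 7.815 to 9.29. The array labelled QUE 100 µM number 2 read 3.611 for PLK1, 12.13 for PLK2, 7.898 for PLK3 and 6.259 for PLK4, against QUE vehicles of 4.624 to 5.805, 11.28 to 11.94, 5.347 to 6.251 and 7.984 to 9.093. Against the vehicle of the same number, PLK2 changed by -0.754 in the array labelled ETP and by 0.191 in that labelled QUE, opposite in sign to the mean changes of 0.453 and -0.621 of the other arrays with those labels.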

How the results depend on the processing

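With all arrays kept as labelled, the PLK2 change at QUE 100 µM was -0.485, the PLK2 difference ETP minus QUE 0.737 and the PLK4 difference ETP minus MMS -0.804, none of them called. With no fold limit the PLK2 change at ETP 3 µM (0.453) was called, and 4997, 7387 and 6089 genes at ETP 3, MMS 500 and QUE 100 µM, against 1589, 4173 and 3332. By probe set 215462_PM_at the PLK3 changes were -0.025 at MMS 100 µM, 0.160 at MMS 500 µM, and -0.419, -0.278, -0.126 and -0.212 at QUE 30, 60, 80 and 100 µM; by the mean of both PLK3 sets the change at QUE 100 µM was 0.539 and under 1.5-fold. Quantile normalization over all arrays brought the PLK3 difference ETP minus QUE (0.602, adjusted p = 0.0491 in limma) past the threshold, ended the PLK3 call at MMS 100 µM (0.560) and made one at ETP 0.03 µM (0.599), where median centring (0.592) also made one. PLK4 at QUE 60 µM was called with median centring (-0.895, adjusted p = 0.0437), by probe set 204887_PM_s_at (-1.06, 0.012) and by the mean of both PLK4 sets (-0.975, 0.0271). With the replicate block the PLK4 difference MMS minus QUE (0.586, adjusted p = 0.0259) and the PLK4 change at QUE 60 µM (-0.888, adjusted p = 0.00158) were called, although the pairs did not all correlate at those doses; beside these and the ETP values given in the report it changed no other call of a member, and it moved the gene counts to 183 at ETP 0.03 µM (76 without), 295 at MMS 100 µM (194), and 18, 31 and 333 at QUE 1, 3 and 10 µM (4, 11 and 215). Leaving out 1 replicate at a time left the call of a member at a dose, or its absence, as it was in 862 cases, ended it in 21 and made one in 9, reversed none, and gave PLK4 changes at MMS 500 µM between -0.901 and -0.523. For the changes of members, no mean-variance trend, a filter at log2 6, and leaving out an array of each doubled number altered no call. The cause of these shifts was not tested beyond what each setting leaves out. Values near log2 4 limit what PLK1 can show at MMS 500 µM and QUE 30 to 100 µM.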
